A study of Mus musculus with 8 samples.

Results

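Sorted Sca1 cells carrying an shRNA against Set7 were compared with undifferentiated mouse embryonic stem cells (mESC), to describe which changes of early differentiation were present in cells with little Set7 mRNA. The members are 4 of the 8 libraries in the study, 2 of the knock-down cells and 2 of mESC, and they were taken by their labels. All cells were from the C57BL/6 strain and grown at 5.5 mM glucose, and each of the 4 groups held 2 libraries. The mESC were kept with LIF, the cytokine that maintains mouse stem cells. The knock-down cells came from stem cells that had spent 4 days without LIF on gelatin, were sorted for Sca1 with magnetic beads to a purity above 80%, and were grown on without LIF for 2 to 8 doublings. They then received the shRNA by lentivirus and at least a week of puromycin at 1 µg/ml. The other groups were untreated Sca1 cells, sorted the same way, and Sca1 cells with a non-target shRNA (NTC), which shared the sort, the virus and the puromycin with the knock-down cells. The mESC received no sort, virus or puromycin, so in the comparison with mESC the effects of LIF withdrawal, sorting, virus, selection and loss of Set7 cannot be told apart. The knock-down cells also differed from both mESC and NTC across chromosomes 15 and Y, as described below. In either comparison, effects of that difference and of the loss of Set7 cannot be told apart. A sorted population is not 1 clone, and in RNA from pooled cells a smaller share of cells and less RNA per cell cannot be told apart.

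The enzyme Set7 is the product of the Setd7 gene and places a single methyl group on lysine 4 of histone H3 and also methylates non-histone proteins, transcription factors among them. Stem cells that lose LIF leave the naive pluripotent state, pass through an epiblast-like state and can enter mesoderm, the germ layer that gives rise to smooth muscle. Smooth muscle genes are switched on by serum response factor (SRF) and its cofactors of the myocardin family, which bind a short A- and T-rich element called the CArG box, and Set7 has been linked to this activation in differentiating stem cells.

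The shRNA names its target on the Setd7 mRNA. Matched to the mouse genome build GRCm38 with the GENCODE vM21 annotation, the target lies in the 3′ untranslated region, in exon 8 of 8 of transcript Setd7-201 (chr3:51520958-51520978, minus strand). It is shown because it defines the knock-down group.

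Setd7 shRNA target: ccgtgttcagagataccaaat

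Setd7 (NM_080793) was measured at 14.0 and 10.8 CPM in the knock-down libraries and at 11.2 and 16.5 CPM in mESC, where CPM are counts scaled by library size and composition. The NTC libraries held 60.7 and 66.7 CPM and the untreated libraries 76.3 and 66.3 CPM. The knock-down and mESC values overlapped, and both were below all 4 values of the other Sca1 libraries. The log2 fold change of knock-down minus mESC was -0.19 ± 0.24 (SE), with a 95% interval from -0.69 to 0.31 and an adjusted p of 0.60 in edgeR's quasi-likelihood test with Benjamini-Hochberg adjustment, which is the test behind every adjusted p below. Against NTC the change was -2.39 ± 0.20 (adjusted p = 1.71e-07). The sign of the change against mESC turned when mESC library 2 or knock-down library 2 was left out (0.11 and 0.01), and neither value passed the test.

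Counts summed over genes were 4288553 and 5080266 in mESC and 2790736 and 4406728 in the knock-down cells, and they lay between 2507938 and 4301485 in the other 4 libraries. The ribosomal RNA transcript NR_046233 took 11.5% of the counts of mESC library 2 and 12.0% of untreated library 2, and at most 1.62% in the other 6 libraries. Chi-square per degree of freedom between replicates, a measure of spread beyond counting noise, was 52.6 for mESC (13405 genes) and 37.4 for untreated cells. It was 2.03 for knock-down cells and 1.53 for NTC. Both high values belong to groups whose replicates differed widely in NR_046233. Its counts were 31112 and 585688 for mESC, and 14316 and 301047 for untreated cells. How much of either high value came from this transcript alone was not tested, so neither is read as a spread shared by all genes. On chromosome 15, 256 of 543 tested genes (47.1%) were higher in the knock-down cells than in mESC, and all 5 tested chromosome Y genes were lower. Nothing in the labels ties the 2 libraries of a group to separate cultures, and p-values then cover only the spread of these libraries, which may be technical. Ly6a, which encodes Sca1 itself and lies on chromosome 15, was at 9.81 and 12.5 CPM in the knock-down cells and at 9.85 and 5.72 CPM in mESC, and did not pass the test (0.54 ± 0.37, adjusted p = 0.307), so the label Sca1 was not visible as a higher Ly6a mRNA level.

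Of 13966 genes tested, 1884 were higher (13.5%) and 1731 were lower (12.4%) in the knock-down cells than in mESC at an adjusted p under 0.05. More than 2-fold changes were called in 948 genes (6.79%) that were higher and 704 genes (5.04%) that were lower. The NTC cells, set against the same mESC libraries, had 2738 higher genes (19.6%) and 2160 lower genes (15.5%), and the untreated cells had 2612 (18.7%) and 2352 (16.8%). These comparisons share the mESC libraries. The NTC calls fell to 1824 higher and 1082 lower genes without NTC library 1, and the lower ones to 1158 without NTC library 2. Directly against NTC, the knock-down cells had 594 higher (4.25%) and 1404 lower genes (10.1%). Those counts became 111 and 537 without knock-down library 2, 163 and 727 without knock-down library 1, 113 and 708 without NTC library 1, and 135 and 769 without NTC library 2. Without mESC library 1 or 2 the higher ones were 1034 and 1030, and with the code in the sample descriptions as a replicate block they were 1054, with 1772 lower. Against the untreated cells 1025 genes were higher (7.34%) and 1381 lower (9.89%), which became 286 and 510 without knock-down library 2 and 359 and 688 without knock-down library 1, and the higher ones were 548 without untreated library 2. The median log2 change over all tested genes was -0.01 against mESC. Without chromosomes 15 and Y, an alternative chosen after the data were seen, 1628 genes were higher and 1707 were lower. Leaving out knock-down library 1 or 2 lowered the calls against mESC to 1146 and 1054 higher and to 917 and 790 lower genes.

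**Figure D1:**
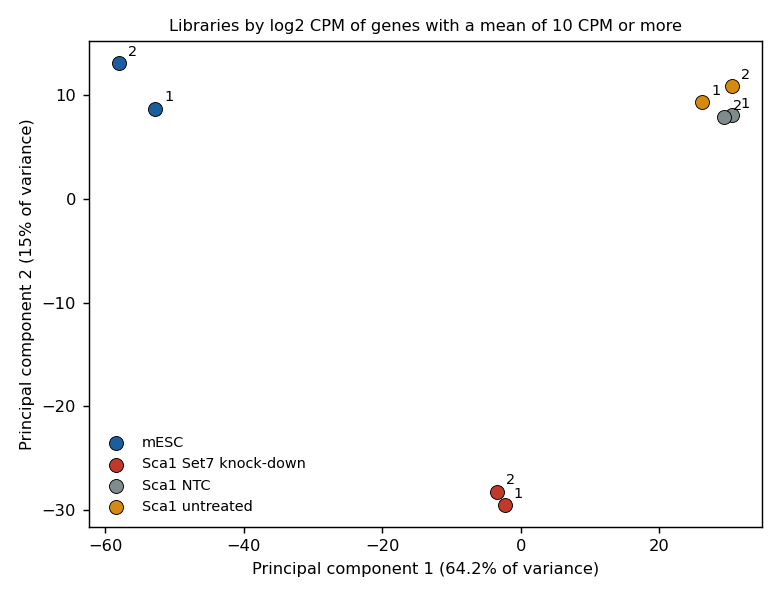
Position of the 8 libraries on the first and second principal components of log2 CPM (64.2% and 15% of the variance), over genes with a mean of 10 CPM or more; points are libraries, numbered by replicate. On the horizontal axis the knock-down libraries sit at -2.29 and -3.45, between mESC at -52.8 and -57.99 and the other Sca1 libraries at 26.22 to 30.5, and on the vertical axis they are lowest at -29.46 and -28.2.

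The principal components placed the knock-down cells apart from both ends of the first component. Their position between mESC and the control Sca1 cells is a description of these 8 libraries. Counts of called list members below are read beside the shares of all genes. These were 13.5% higher and 12.4% lower against mESC, and 4.25% higher and 10.1% lower against NTC. The genes described next are of several kinds. Some rose to the level of the NTC cells, some rose part of the way, some stayed at the stem cell level, and some lay outside the range of every other library.

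Of the smooth muscle contractile genes, 14 of 26 rose against mESC and 12 did not pass, and 17 of the 26 were below NTC. Acta2, the smooth muscle actin, was at 29.4 and 33.9 CPM in the knock-down cells, against 3.43 and 1.54 CPM in mESC and 271 and 282 CPM in NTC. The 3 groups did not overlap for Acta2, and the knock-down values were above mESC by 3.67 ± 0.42 (adjusted p = 8.68e-05) and below NTC by a log2 change of -3.12 ± 0.25 (adjusted p = 8.74e-06). Tagln, the actin-bundling protein transgelin, was at 73.5 and 85.1 CPM in the knock-down cells and at 4.81 and 4.40 CPM in mESC. It rose by 4.10 ± 0.27 on the log2 scale (adjusted p = 2.94e-08) and reached a level closer to the 214 and 231 CPM of NTC than Acta2 did, with a change against NTC of -1.48 ± 0.18. Cnn1, the actin-binding protein calponin, rose from 0.229 and 0.660 CPM to 5.25 and 6.16 CPM, by 3.59 ± 0.51 (adjusted p = 5.16e-05), and NTC held 12.5 CPM in both libraries.

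The list held 28 smooth muscle genes, of which 26 were tested. None was lower than in mESC by edgeR, the median log2 change was 0.79, and 1 was lower without mESC library 1, mESC library 2 or untreated library 2. Myosin light chain Myl9 rose from 2.52 and 1.54 to 17.9 and 14.3 CPM (2.95 ± 0.34, adjusted p = 4.48e-06), and no knock-down value reached the mESC range. The tropomyosin Tpm1 rose from 102 and 89.1 to 308 and 312 CPM, Cald1, which encodes caldesmon, from 26.1 and 30.6 to 69.3 and 77.6 CPM, and the calponin Cnn2 from 33.7 and 30.4 to 120 and 114 CPM. Their log2 changes were 1.70 ± 0.12, 1.38 ± 0.15 and 1.87 ± 0.13, with adjusted p-values of 2.69e-08, 2.04e-06 and 1.93e-08. In NTC, 19 of the 26 were higher than in mESC. The 17 below NTC compare with 10.1% of all genes that were lower in that comparison. Myh11, the smooth muscle myosin heavy chain of mature cells, had a mean of 0.855 CPM in the knock-down cells and 1.24 CPM in mESC and did not pass. The 3 actin genes Acta1, Acta2 and Actc1 are close in sequence, and reads could be shared among them. Acta1, the skeletal muscle actin, had 111 counts in the knock-down cells and 2 in mESC, a ratio of 66.8 with an exact 95% counting interval from 18.1 to 558.

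Promoter sequence is shown for 3 of these genes because the CArG box is the element through which SRF acts on them. The search took CC, a run of 6 bases that are each A or T, and GG in the 250 bases before each RefSeq start (build GRCm38.p6), and the element reads the same on both strands. It was found in 3 of the 22 smooth muscle genes with a window (Cnn2, Myl9 and Myl6; 13.6%) and in 439 of 27025 genes in all (1.62%). The matches are in capitals. The Cnn2 window is chr10:79988350-79988599 on the plus strand, the Myl9 window chr2:156775214-156775463 on the plus strand, and the Acta2 window chr19:34255374-34255623 on the minus strand.

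Cnn2: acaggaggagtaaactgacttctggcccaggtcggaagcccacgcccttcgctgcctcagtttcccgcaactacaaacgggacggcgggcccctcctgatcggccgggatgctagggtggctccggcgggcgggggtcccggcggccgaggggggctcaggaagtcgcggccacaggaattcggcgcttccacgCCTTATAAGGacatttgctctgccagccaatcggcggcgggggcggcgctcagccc

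Myl9: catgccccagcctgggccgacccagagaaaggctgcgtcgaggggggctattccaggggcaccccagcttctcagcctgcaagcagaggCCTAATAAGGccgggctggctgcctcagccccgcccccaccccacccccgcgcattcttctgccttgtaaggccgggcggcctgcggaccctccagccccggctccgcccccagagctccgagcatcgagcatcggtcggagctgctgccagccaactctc

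Acta2: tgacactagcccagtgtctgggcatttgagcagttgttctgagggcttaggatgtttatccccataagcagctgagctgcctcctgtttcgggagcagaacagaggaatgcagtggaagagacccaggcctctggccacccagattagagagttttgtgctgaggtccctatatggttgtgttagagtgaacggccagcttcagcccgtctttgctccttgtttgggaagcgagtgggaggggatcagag

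The Acta2 and Cnn1 windows held no exact match, which says only that these letters are not in these windows. The Acta2 window does hold ccctatatgg and ccttgtttgg, which miss the pattern by a single C and a single G in the run. Such near matches were not searched for or counted. Cnn2 and Myl9, with an exact match, and Acta2 and Cnn1, without an exact match, were all higher in the knock-down cells than in mESC and lower than in NTC.

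Among 18 tested SRF and actin-dynamics targets, 7 were higher than in mESC, beside 13.5% of all genes, with a median of 0.42. The lower ones were 2, Junb and Tpm3, near the 12.4% of all genes. Without knock-down library 2 neither of the 2 was called, and without knock-down library 1 or mESC library 2 only 1 was. Ccn2, which encodes connective tissue growth factor, rose from 21.5 and 27.7 CPM to 91.1 and 86.6 CPM (1.85 ± 0.16, adjusted p = 1.54e-07). Fhl1, a LIM-domain protein of muscle, rose from 48.5 and 49.1 to 145 and 176 CPM (1.72 ± 0.13). The NTC libraries held 75.4 and 76.9 CPM of Ccn2 and 119 and 136 CPM of Fhl1, and neither gene passed the test between knock-down and NTC. The list holds Filip1l, whose reads cannot be told apart from those of an overlapping gene and follow NR_046233, so its value is uncertain.

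**Figure D2:**
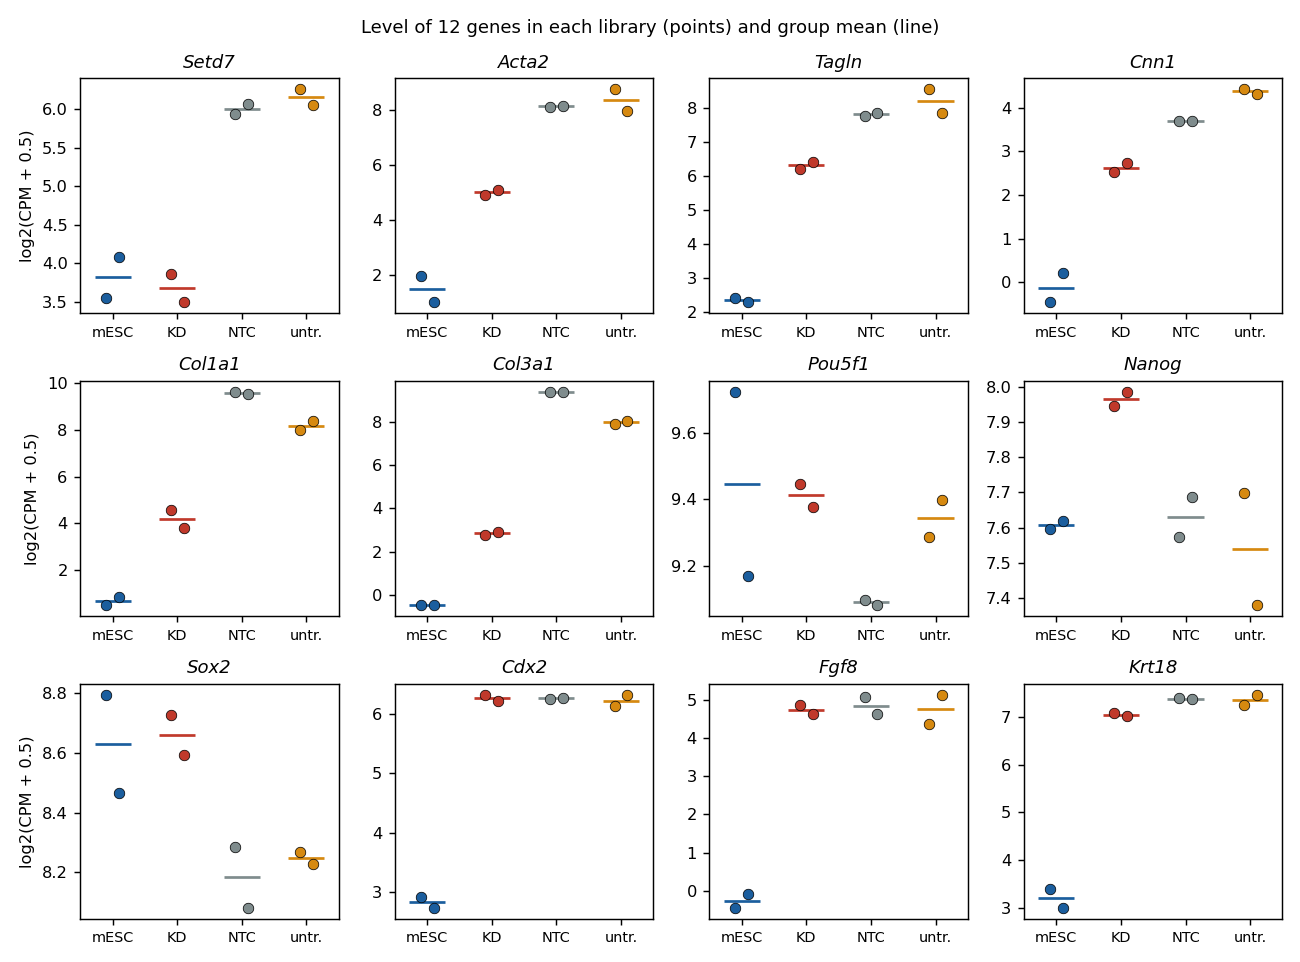
Level of 12 genes in each library as log2(CPM + 0.5), points for libraries and lines for group means; KD is the knock-down and untr. the untreated Sca1 cells, and the vertical axes differ between panels. Acta2, Tagln, Cnn1, Col1a1 and Col3a1 of the knock-down cells lie between mESC and the other Sca1 cells, Setd7 lies with mESC, and Cdx2 and Fgf8 lie with the other Sca1 cells.

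Of 35 fibrillar matrix genes, 17 rose against mESC and 31 were below NTC. Col1a1, a chain of type I collagen, was at 23.1 and 13.6 CPM in the knock-down cells, at 0.916 and 1.32 CPM in mESC and at 788 and 739 CPM in NTC. It rose against mESC by 3.94 ± 0.37 (adjusted p = 6.88e-07), and its change against NTC was -5.43 ± 0.20 (adjusted p = 5.21e-12). Col1a2, the other chain, rose from 1.6 and 1.32 to 26.6 and 24.8 CPM (4.10 ± 0.25, adjusted p = 3.11e-09), and NTC held 303 and 291 CPM. Neither collagen overlapped between any of the 3 groups. Col3a1, type III collagen, had 50 counts in the knock-down cells and 2 in mESC, a ratio of 30.1 with an exact 95% counting interval from 7.91 to 255, and NTC held 656 and 659 CPM. Thbs1, the matrix glycoprotein thrombospondin, rose from 1.83 and 1.54 to 23.5 and 26.6 CPM (3.88 ± 0.26, adjusted p = 9.16e-09), with 168 and 171 CPM in NTC.

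Besides the 17 higher genes, 3 of the 35 were lower than in mESC and 15 did not pass, with a median of 1.08, or 1.02 with genes at 0 counts set at their bound. In NTC, 32 of the 35 were higher than in mESC. The 3 lower genes were Tgfbi, Sparc and Timp1, a matrix protein induced by TGF-beta, a collagen-binding glycoprotein and a protease inhibitor, and without knock-down library 2 only 1 of the 3 was called. Tgfbi had a mean of 5.70 CPM in the knock-down cells, 11.8 CPM in mESC and 158 CPM in NTC. Postn, which encodes periostin, had 0 counts in both knock-down and mESC libraries and a mean of 27.2 CPM in NTC.

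Of 15 tested genes of the basement membrane, a sheet of laminin, nidogen and type IV collagen, 9 were lower and 2 higher than in mESC and 4 did not pass, and without knock-down library 2 the lower genes were 5. Lama1, a laminin chain, was at 641 and 611 CPM in the knock-down cells against 1714 and 1735 CPM in mESC, a change of -1.46 ± 0.13 (adjusted p = 2.20e-07). Nid1, which encodes nidogen, was at 96.3 and 99.8 CPM against 327 and 374 CPM (-1.84 ± 0.14, adjusted p = 5.08e-08). The NTC cells held 1063 and 1011 CPM of Lama1 and 283 and 270 CPM of Nid1, above both knock-down values. The untreated cells held 592 and 686 CPM of Lama1, which overlapped the knock-down values (-0.03, 95% interval -0.29 to 0.23), and 156 and 114 CPM of Nid1. The median of the list was -0.54. Against NTC, 12 of the 15 were lower and 0 higher in the knock-down cells, whereas against the untreated cells 4 were lower, 3 higher and 8 not called, with a median of 0.01. The untreated cells themselves had 10 of the 15 lower and 5 higher than mESC. The 2 genes above mESC in the knock-down cells were Col18a1 and Lama5, and Col18a1, a collagen of vessel and epithelial membranes, rose from 298 and 336 to 809 and 726 CPM (1.28 ± 0.16) and did not pass the test against NTC (-0.06).

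Of 16 mesenchymal genes tested, 2 were higher and 2 lower than in mESC, near the 13.5% and 12.4% of all genes, with a median of 0.56 (0.32 with genes at 0 counts set at their bound), whereas 13 were higher in NTC than in mESC. Against NTC, 14 of the 16 were lower in the knock-down cells. Vim, which encodes the intermediate filament vimentin, was at 125 and 134 CPM in the knock-down cells and at 567 and 466 CPM in mESC (-1.99 ± 0.15, adjusted p = 4.78e-08), and NTC held 476 and 484 CPM. Zeb1, a repressor of epithelial genes, was at 8.41 and 8.57 CPM against 21.1 and 31.9 CPM (-1.64 ± 0.27, adjusted p = 0.000181). Cdh2, N-cadherin, rose from 4.81 and 9.46 to 16.5 and 17.8 CPM (1.26 ± 0.26, adjusted p = 0.00135), below the 87.5 and 82.2 CPM of NTC. The other higher gene, Thy1, was not called without mESC library 2 (adjusted p = 0.0653), knock-down library 1 (0.0821) or knock-down library 2 (0.11). Twist1 and Cdh11, mesenchymal regulator and cadherin, had knock-down means of 2.19 and 2.70 CPM, against 16.1 and 55.1 CPM in NTC, and did not pass the test against mESC (adjusted p = 0.133 and 0.116).

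Epithelial genes rose in most cases. Of 24 tested, 16 were higher and 0 lower than in mESC, with a median of 1.46, and 1 was lower without mESC library 1 or either untreated library. In NTC 16 were higher and 1 lower than in mESC, and between knock-down and NTC 3 were higher, 3 lower and 18 not called. Krt18, the keratin of simple epithelia, rose from 10.1 and 7.48 to 134 and 129 CPM (3.90 ± 0.17, adjusted p = 8.20e-11), against 166 CPM in each NTC library. The tight junction protein Cldn4 rose from 30.7 and 21.6 to 200 and 224 CPM (3.02 ± 0.15, adjusted p = 4.39e-10), above the 154 and 163 CPM of NTC (0.42, adjusted p = 0.0423). Esrp1, which directs epithelial splicing, rose from 19.9 and 18.3 to 137 and 129 CPM (2.80 ± 0.20). Grhl2, a transcription factor of epithelial junctions, rose from 15.8 and 21.1 to 97.0 and 98.5 CPM (2.40 ± 0.17, adjusted p = 2.45e-08) and lay above NTC at 46.1 and 39.5 CPM (1.19 ± 0.16, adjusted p = 3.41e-05). Krt18, Krt8, Krt7 and Grhl2 lie on chromosome 15, and the part of that chromosome's shift in their values was not tested. Cdh1, E-cadherin, did not pass (-0.23), with means of 668 CPM in mESC and 568 CPM in the knock-down cells.

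Of 11 Cdx genes and Hox cofactors, 4 were higher and 1 lower than in mESC and 6 did not pass, with a median of 0.41. Cdx2, a homeobox factor that acts upstream of the Hox clusters in posterior tissue, rose from 7.10 and 6.16 to 79.2 and 73.4 CPM (3.52 ± 0.18, adjusted p = 4.39e-10), and NTC held 75.9 and 76.5 CPM. The difference between knock-down and NTC had a 95% interval from -0.28 to 0.28. Cdx4 had 63 counts in the knock-down cells and 0 in mESC, at least 25.3-fold higher when 3 counts are put in the mESC group. Meis1, a cofactor of Hox proteins, was lower than in mESC, at 2.10 and 2.64 CPM against 8.47 and 7.92 CPM in mESC (-1.74 ± 0.39, adjusted p = 0.00278), while NTC held 20.3 and 23.2 CPM.

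Of 39 Hox genes, the homeobox factors that set position along the body axis, 32 were tested, and 23 were higher and 1 lower than in mESC. The median log2 change was 3.73, or 3.18 with genes at 0 counts set at their bound. In NTC 31 of the 32 were higher than in mESC. No Hox gene was higher in the knock-down cells than in NTC, and 27 were lower. Hoxd3 rose from 0.229 and 0.660 to 15.8 and 16.7 CPM (5.08 ± 0.39, adjusted p = 5.24e-08), with 88.9 and 81.4 CPM in NTC (-2.38 ± 0.18, adjusted p = 3.04e-08). Hoxb8 had 80 counts in the knock-down cells and 3 in mESC, a ratio of 32.1 with a counting interval from 10.6 to 159, and its change against NTC was -0.95. Hoxa3 rose from 0.687 and 1.32 to 15.1 and 11.0 CPM (3.61 ± 0.39) and Hoxd9 from 0.916 and 0.440 to 10.9 and 9.67 CPM (3.85 ± 0.42). The knock-down values of these 4 genes stood between the mESC and NTC values without overlap. The single lower gene, Hoxc13, was at 1.05 and 1.54 CPM against 7.33 and 8.36 CPM in mESC (-2.52 ± 0.50, adjusted p = 0.0012). The 7 tested HoxC genes lie on chromosome 15.

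**Figure D3:**
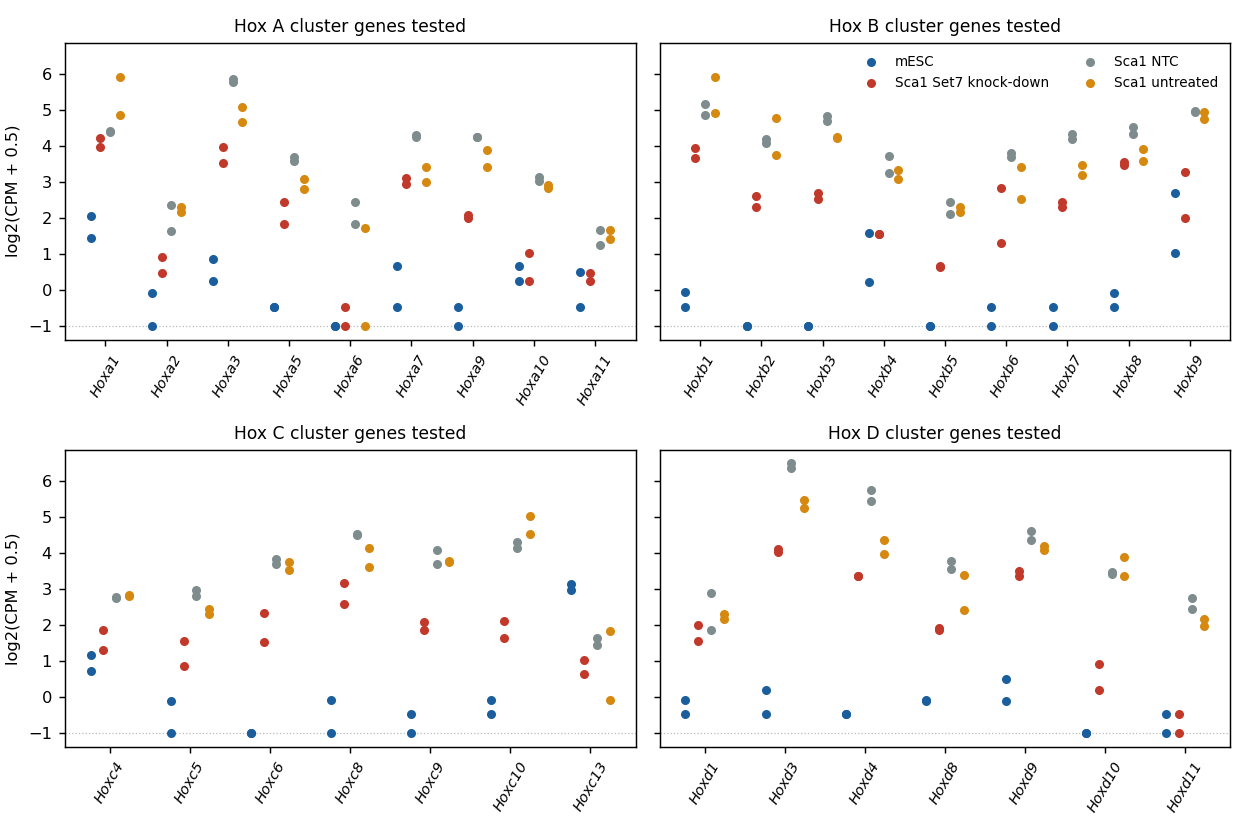
Level of the 32 tested Hox genes in each library as log2(CPM + 0.5), by cluster, with 1 point per library; the dotted line marks 0 counts. In most genes the knock-down points lie above mESC and below NTC, and Hoxc13 is the gene in which mESC is highest.

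Of 18 tested genes of the primitive streak and early mesoderm, 7 were higher and 3 lower than in mESC and 8 did not pass. Fgf8, a growth factor of the streak, had 192 counts in the knock-down cells and 3 in mESC, a ratio of 77.0 with a counting interval from 26 to 377. Its knock-down values of 28.4 and 24.4 CPM overlapped those of NTC at 32.9 and 24.1 CPM. Mixl1, a homeobox factor of mesendoderm, had 75 counts against 3, a ratio of 30.1 (9.91 to 149). The Wnt ligand Wnt3 rose from 0.916 and 0.660 to 16.8 and 14.3 CPM (4.24 ± 0.39, adjusted p = 4.14e-07), with 15.8 and 16.7 CPM in NTC. The changes of Fgf8, Mixl1 and Wnt3 against NTC were -0.12, 0.32 and -0.08, and none of the 3 passed.

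The median of the 18 genes was 1.01, and 13 of them were higher in NTC than in mESC. The 3 lower genes were Meis1, the growth factor Bmp4 and the receptor Pdgfra. Bmp4 had a mean of 60.5 CPM in the knock-down cells and 153 CPM in mESC (-1.35). Against NTC 8 of the 18 were lower and 1, the T-box factor Eomes, was higher (1.08).

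Of 26 Wnt ligands and targets, 16 were higher and 0 lower than in mESC with a median of 1.01, with 1 lower without mESC library 1 or 2. Against NTC 2 were higher and 11 lower. Wnt8a rose from 5.95 and 3.96 to 68.7 and 74.3 CPM (3.85 ± 0.28, adjusted p = 5.57e-08) and did not pass against NTC at 47.7 and 52.8 CPM. Axin2, a feedback inhibitor that reports canonical Wnt signalling, rose from 82.9 and 80.8 to 201 and 179 CPM (1.21 ± 0.13), beside 190 and 160 CPM in NTC. Wnt5a, a ligand of non-canonical signalling, rose from 0.229 and 0.880 to 11.9 and 13.2 CPM (4.42 ± 0.41) and stayed below the 46.1 and 50.4 CPM of NTC. The knock-down and NTC values overlapped for Axin2 and did not overlap for Wnt8a or Wnt5a.

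In the other signalling lists, 7 of 20 fibroblast growth factor genes were higher and 7 lower, and 7 of 18 BMP genes were higher and 2 lower. Of 24 Nodal and TGF-beta genes 9 were higher and 3 lower, and of 14 Notch genes 8 were higher and 2 lower. Of all genes 13.5% were higher and 12.4% lower, and the lower BMP, Nodal and TGF-beta counts are near the latter share. Without knock-down library 2 the BMP and Notch genes called higher were 4 in each list and those called lower 1 in each, and without mESC library 1 the higher Notch genes were 5. The lower BMP genes were also 1 without knock-down library 1 or mESC library 2, and the lower fibroblast growth factor genes were 4 without knock-down library 1 or 2. Fgf10, a ligand of epithelial branching, was at 2.80 and 1.98 CPM against 26.8 and 26.9 CPM in mESC (-3.52 ± 0.32, adjusted p = 3.64e-07), and NTC held 2.84 and 2.23 CPM. Msx1, a homeobox target of BMP signals, rose from 1.83 and 1.10 to 16.5 and 14.7 CPM (3.38 ± 0.33), below NTC at 37.6 and 35.4 CPM. Lefty1, an inhibitor of Nodal, rose from 29.8 and 24.4 to 87.9 and 83.5 CPM (1.66 ± 0.21) and did not pass against NTC.

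Imprinted genes, which are expressed from 1 parental copy and many of which act in fetal growth, rose in most cases. Peg10, a retrotransposon-derived placental gene, went from 172 and 200.5 CPM in mESC to 1786 and 1971 CPM in the knock-down cells (3.33 ± 0.14, adjusted p = 8.20e-11). The NTC libraries held 2290 and 2326 CPM, and the difference did not pass (-0.30, adjusted p = 0.14). Igf2, a fetal growth factor, rose from 12.6 and 9.02 to 86.9 and 92.8 CPM (3.06 ± 0.27, adjusted p = 7.56e-06) and stayed far below NTC at 1126 and 1078 CPM (-3.62 ± 0.23). Dlk1, a membrane protein of progenitor cells, was at 8.05 and 7.69 CPM in the knock-down cells and at 5.95 and 3.52 CPM in mESC, which did not pass (0.73, adjusted p = 0.0802), while NTC held 429 and 420 CPM. The 3 genes thus took 3 positions, close to NTC, between the groups and close to mESC.

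Of 28 tested imprinted genes, 17 were higher and 3 lower than in mESC with a median of 1.09 (0.90 with the gene at 0 counts set at its bound), and without knock-down library 2 the higher genes were 11. In NTC 24 were higher, and against NTC 17 were lower and 0 higher. The 3 lower genes, a share near the 12.4% of all genes, were Meg3, Rian and Kcnq1ot1. They are non-coding RNAs, with mean levels of 416, 141 and 18.8 CPM against 551, 221 and 59.2 CPM in mESC. Peg3, a zinc finger gene, rose from 59.5 and 71.5 to 266 and 252 CPM (1.98 ± 0.14) and Mest, a hydrolase of mesoderm, from 125 and 130 to 276 and 292 CPM (1.16 ± 0.12). Both lay below NTC, where Peg3 was at 972 and 811 CPM and Mest at 910 and 949 CPM.

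Naive pluripotency genes fell in most cases. Of 24 naive genes, 19 were lower and 2 higher than in mESC with a median of -0.95, and NTC had 21 lower and 1 higher. Socs3, a feedback inhibitor switched on by LIF, was at 13.0 and 14.3 CPM against 144 and 103 CPM (-3.17 ± 0.24, adjusted p = 8.62e-08). Stat3, the transcription factor that carries the LIF signal, was at 60.9 and 46.2 CPM against 248 and 229 CPM (-2.17 ± 0.21, adjusted p = 7.58e-06), below NTC at 96.9 and 91.2 CPM (-0.83, adjusted p = 0.021). The Krüppel-like factor Klf4 was at 30.5 and 32.3 CPM against 154 and 130 CPM (-2.17 ± 0.19, adjusted p = 2.69e-07) and did not pass against NTC. Of these 3 genes, Stat3 was the one called between knock-down and NTC. The 2 higher genes were Dppa3, a maternal factor that protects methylation, which rose from 5.27 and 3.08 to 28.4 and 26.8 CPM (2.72 ± 0.25), and Dppa5a, called at 0.39 (adjusted p = 0.0435). Only 1 of the 2 was called without knock-down library 1, without mESC library 1 or 2, and without NTC library 1 or 2.

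Of the core factors, Pou5f1 and Sox2 moved little. Pou5f1 was at 697 and 665 CPM in the knock-down cells and at 844 and 575 CPM in mESC (-0.06, 95% interval -0.37 to 0.25, adjusted p = 0.811). Sox2 was at 423 and 385 CPM against 444 and 353 CPM (0.02, -0.25 to 0.29, adjusted p = 0.926). The knock-down values of both genes fell inside the mESC range. Nanog was at 246 and 253 CPM against 193 and 196 CPM, an increase of 0.36 ± 0.12 (adjusted p = 0.0377) that was lost without knock-down library 1 (adjusted p = 0.141), without library 2 (0.209), without either NTC library (0.0739 and 0.0742), and with scaling by library totals (0.0779). Sox2 of the knock-down cells was above NTC (0.48, adjusted p = 0.017), and NTC had 1 of 15 core genes higher and 10 lower than mESC. In the knock-down cells 2 of the 15 were higher, near the 13.5% of all genes, and 3 lower, beside 12.4% of all genes. Without any 1 of the knock-down or NTC libraries 1 was higher, and without mESC library 2 the lower genes were 5. The lower genes were Tdgf1, Esrrb and Dppa2, the last not called without knock-down library 1 (adjusted p = 0.161), and Tdgf1, a Nodal co-receptor, was at 196 and 205 CPM against 462 and 620 CPM (-1.43 ± 0.15, adjusted p = 1.32e-06).

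Genes of the primed epiblast, the state after naive pluripotency, rose in 9 of 14 cases and 1, Etv4, was lower, with a median of 1.02. Otx2, a homeobox factor of that state, rose from 7.56 and 8.14 to 19.6 and 24.0 CPM (1.48 ± 0.25, adjusted p = 0.000311). Cldn6, a tight junction gene, rose from 14.0 and 13.6 to 120 and 127 CPM (3.16 ± 0.16), and the de novo methyltransferase Dnmt3a from 136 and 112 to 230 and 218 CPM (0.86 ± 0.13). None of the 3 passed against NTC, where 2 of the 14 were higher and 2 lower. Etv4 was not called without knock-down library 1 or 2.

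**Figure D4:**
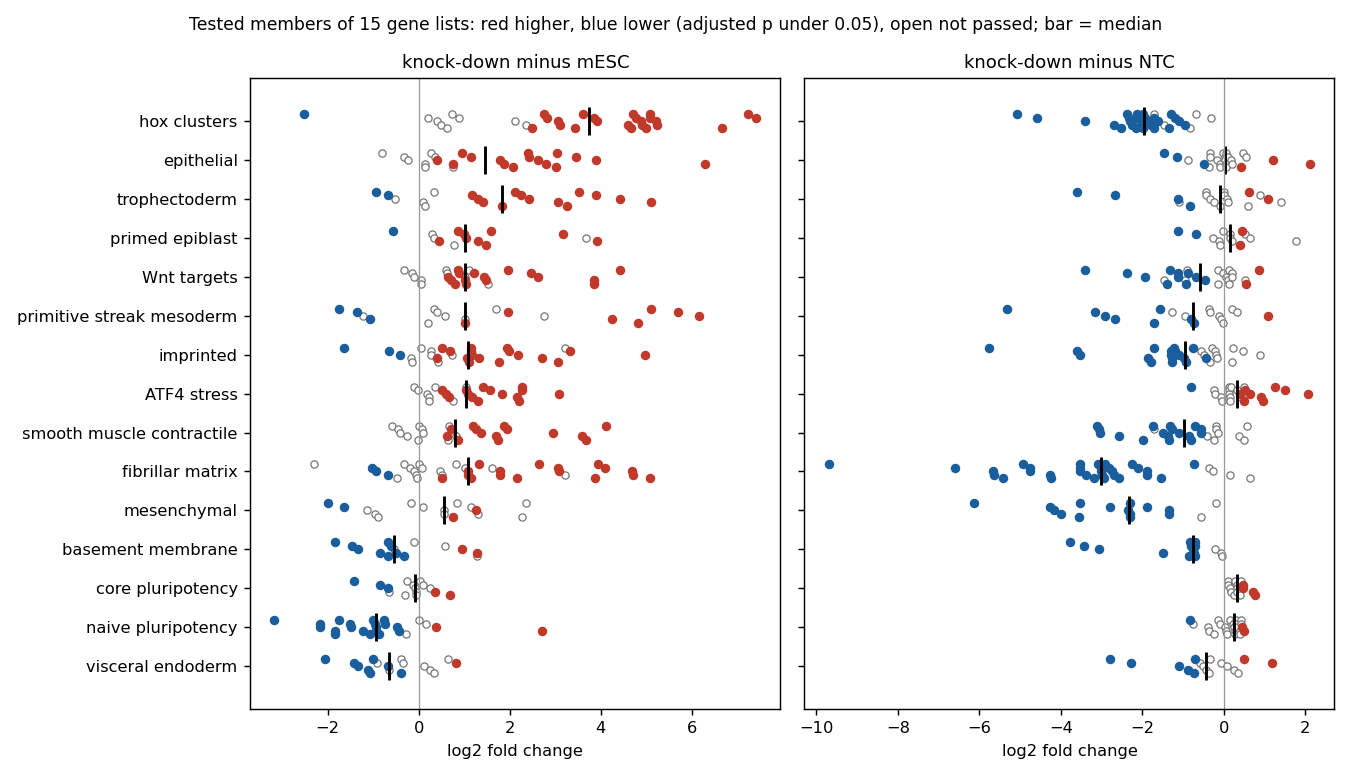
Log2 fold change of each tested member of 15 gene lists, knock-down minus mESC on the left and knock-down minus NTC on the right; filled points passed an adjusted p of 0.05, open points did not, and bars are fitted medians. Contractile, matrix, Hox and imprinted members lie mostly above 0 on the left and below 0 on the right, epithelial members lie above 0 on the left and around 0 on the right, and naive genes lie below 0 on the left.

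A further set of genes lay beyond all 6 other libraries in both knock-down libraries. They were picked for this position, so their direction against NTC and untreated cells was set by the choice. Of 1102 genes called higher than mESC without overlap, with 20 CPM or more and no clone or accession name, 444 held it. Slc40a1, the iron exporter ferroportin, was at 49.0 and 53.6 CPM against 1.37 and 1.10 CPM in mESC (5.35 ± 0.27, adjusted p = 4.39e-10), and 26.9 to 32.8 CPM in the other Sca1 libraries. The metallothionein Mt1, a metal-binding protein, was at 491 and 488 CPM against 37.1 and 59.4 CPM (3.34 ± 0.25, adjusted p = 5.55e-06), with 272 CPM in each NTC library and 464 and 284 CPM in the untreated ones. Mt2 was at 388 and 387 CPM against 30.4 and 53.5 CPM (3.20 ± 0.21), and the 2 metallothioneins are close in sequence and could share reads. The same position was held by Lad1, a basement membrane anchor of epithelia (3.36), the glutathione transferase Gstm3 (4.59) and the myelin gene Mbp (3.76). It was also held by the ubiquitin ligase gene Pdzrn4 (4.36), which lies on chromosome 15. Lying beyond all other libraries did not always mean a call. Mbp was not called against NTC (0.48, adjusted p = 0.182) or the untreated cells (0.41, adjusted p = 0.268). Mt1 and Mt2 were not called against the untreated cells (adjusted p = 0.284 and 0.116). Slc40a1, Lad1, Gstm3 and Pdzrn4 were called against both. Gstm3 belongs to a family of near copies, so its value is uncertain.

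Chac1, an enzyme that degrades glutathione and a target of the stress factor ATF4, was at 27.0 and 31.9 CPM in the knock-down cells against 3.66 and 3.30 CPM in mESC (3.08 ± 0.36, adjusted p = 7.22e-06) and 8.04 and 6.24 CPM in NTC (2.05 ± 0.32, adjusted p = 0.000254). Of 23 genes of the amino acid and ATF4 response, 15 were higher and 0 lower than in mESC with a median of 1.04. Against NTC 9 were higher and 1 lower, where 4.25% of all genes were higher. Pck2, a mitochondrial enzyme of gluconeogenesis, rose from 27.0 and 19.8 to 114 and 112 CPM (2.27 ± 0.16), and Psat1, of serine synthesis, from 132 and 114 to 308 and 344 CPM (1.41 ± 0.12). Trib3, a pseudokinase induced by ATF4, was at 37.8 and 42.4 CPM against 20.1 and 15.4 CPM in mESC and 16.8 and 16.7 CPM in NTC. Atf4 itself lies on chromosome 15 and rose from 208 and 145 to 453 and 418 CPM (1.30 ± 0.17, adjusted p = 4.95e-05). Of the 23 genes only 1 lies on that chromosome, and the part of the chromosome's shift in the values of this list was not tested.

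Among the genes with the lowest values, Khdc3, an oocyte and stem cell gene, fell to 4.20 and 3.30 CPM from 124 and 83.6 CPM (-4.81 ± 0.26, adjusted p = 8.46e-10). Mras, a Ras-related GTPase, fell to 2.80 and 4.18 CPM from 63.2 and 64.3 CPM (-4.12 ± 0.25), and Inhbb, a subunit of activin B, to 2.10 and 1.76 CPM from 28.9 and 37.9 CPM (-4.12 ± 0.34). NTC was also below mESC in these 3 genes, at 7.33 and 8.69, 9.45 and 9.36, and 7.33 and 6.02 CPM, and the knock-down was lower still. Pcolce, an enhancer of procollagen processing, was at 10.5 and 9.67 CPM in the knock-down cells against 126 and 112 CPM in mESC (-3.57 ± 0.17, adjusted p = 3.18e-10) and 120 and 119 CPM in NTC, and its untreated values of 75.1 and 63.2 CPM were also below mESC (-0.78, adjusted p = 0.000206). Pros1, the anticoagulant protein S, Kbtbd11, Zmat4 and Cyp2b23 were also below all 6 other libraries, with log2 changes against mESC of -3.46, -3.37, -3.17 and -3.32. Khdc3, Mras, Inhbb and Pcolce held this position too, and it was a rule for naming genes. Of 1265 genes called lower without overlap, with 20 CPM or more in mESC and no clone or accession name, 330 held it. Zmat4 was not called against NTC (adjusted p = 0.107) or the untreated cells (0.150), and Khdc3 was not called against the untreated cells (0.0749). Cyp2b23 has close relatives that may share its reads. Xaf1 (-3.59) and Ly6g6e (-3.29) fell to about the NTC level.

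Surface genes of vessel wall and progenitor cells fell in 7 and rose in 3 of 16 cases, beside 12.4% and 13.5% of all genes. Mcam, an adhesion molecule of pericytes and smooth muscle, was at 26.3 and 28.6 CPM against 156 and 164 CPM in mESC (-2.53 ± 0.14, adjusted p = 8.63e-10) 98.3 and 89.8 CPM in NTC and 40.8 and 37.1 CPM in the untreated cells. Icam1, a leukocyte adhesion molecule, was at 36.4 and 37.4 CPM against 156 and 243 CPM (-2.43 ± 0.18), close to NTC at 55.8 and 55.5 CPM. Without knock-down library 2 none of the 3 higher genes was called. The median of the list was 0.21, or -0.06 with the gene at 0 counts set at its bound, so its sign depends on that gene.

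In 378 of the 13966 genes tested the knock-down cells were called below NTC while no difference from mESC was called. Their 95% interval against mESC lay within 1 log2 unit of 0. A mean of at least 20 CPM in NTC and a symbol that is not a clone or accession name were also required. The rule did not ask that NTC differ from mESC. The 13966 include genes that could not meet the level or the name rule, so 378 is not a share of eligible genes. The small changes against mESC and the falls against NTC given next were set by this rule and are not a separate result. Fbn1, the microfibril protein fibrillin, was at 11.2 and 12.8 CPM in the knock-down cells, 12.4 and 12.8 CPM in mESC and 133 and 122 CPM in NTC. Adgra2, an adhesion receptor in Wnt signalling of vessels, was at 9.11 and 8.79 CPM against 11.2 and 11.7 CPM in mESC and 128 and 106 CPM in NTC. Mmp2, a matrix protease, was at 14.0 and 13.4 CPM against 16.3 and 13.0 CPM and 97.8 and 112 CPM. The changes against mESC of Fbn1, Adgra2 and Mmp2 were -0.05 (-0.49 to 0.38), -0.36 (-0.91 to 0.20) and -0.10 (-0.53 to 0.34), and those against NTC were -3.39, -3.71 and -2.93.

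The same rule named Emilin1, a protein of elastic fibres, the vitamin D-dependent calcium binder S100g, the collagen Col5a1, the zinc finger gene Zfp362 and the syndecan Sdc3. Their knock-down minus mESC values lay between -0.18 and 0.48, and their knock-down minus NTC values between -3.45 and -2.78. Col5a1 had the highest of the former, with an adjusted p of 0.0874 that passed without knock-down library 2 (0.0201) and without the filter on low counts (0.044). The signs of Fbn1, S100g, Mmp2 and Zfp362 against mESC depended on the library left out or the scaling.

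Cell cycle genes gave few calls. Of 26 DNA replication genes 1 was higher and 2 lower than in mESC, and of 22 mitosis genes 0 were higher and 1 lower by edgeR. Without knock-down library 1 or 2 both lists had 0 calls, and without NTC library 1 or 2 the replication list had 0. Leaving out mESC library 1 gave 8 higher replication genes and 2 higher mitosis genes, and leaving out mESC library 2 gave 5 lower mitosis genes. Among 23 enzymes and partners of lysine 4 methylation on histone H3, Setd7 included, 3 were higher and 5 lower, with 2 lower without any 1 of the knock-down or NTC libraries. The shares of these and of the following lists are read beside 13.5% of all genes higher and 12.4% lower. Among 24 polycomb genes 4 were higher and 4 lower, 2 of the higher ones on chromosome 15 and 1 of the lower ones, Uty, on chromosome Y. Of 14 DNA methylation genes 3 were higher and 2 lower, with 1 of each without knock-down library 2 and 1 lower without knock-down library 1. The demethylase Kdm6b was at 22.8 and 18.7 CPM against 46.5 and 40.9 CPM in mESC (-1.09 ± 0.18, adjusted p = 0.00026) and 69.7 and 54.6 CPM in NTC.

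Over the same background of 13.5% and 12.4%, of 22 glycolysis genes 8 were higher and 3 lower, and without knock-down library 1 or 2 the higher genes were 4. Slc2a3, a glucose transporter, rose from 1384 and 1826 to 2845 and 3005 CPM (0.87 ± 0.14) and Hk2, a hexokinase, fell from 448 and 442 to 170 and 184 CPM (-1.33 ± 0.13). NTC was on the same side of mESC in both, at 2866 and 2992 CPM and at 227 and 232 CPM. Of 20 p53 genes 1 was higher and 7 lower, of 20 cholesterol genes 1 higher and 4 lower, of 19 interferon response genes 6 higher and 7 lower, and of 20 YAP targets 8 higher and 2 lower. The cholesterol genes called lower were 0 without knock-down library 1 or 2 and 2 without mESC library 1. The YAP targets called higher were 4 without knock-down library 1 and 5 without knock-down library 2, mESC library 1 or either NTC library, and those called lower were 4 without mESC library 1 and 1 without any 1 of the knock-down or NTC libraries. The higher p53 genes were 2 without mESC library 1 and 0 without knock-down library 1. Of 7 oncofetal genes 2 were higher and 3 lower, with 1 higher without knock-down library 1 or 2. Of 19 germline genes 2 were higher and 6 lower, with 1 higher without any 1 of the knock-down or NTC libraries, and Dazl, an RNA-binding protein of germ cells, fell from 114 and 175 to 22.1 and 23.3 CPM (-2.67 ± 0.19, adjusted p = 2.55e-08).

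Markers of other cell types were summed to show what else the populations may hold. Trophectoderm genes, which include Cdx2, Krt8, Krt18 and Igf2 named above, summed to 719.4 and 726.0 CPM in the knock-down cells against 294.5 to 306.1 CPM in mESC and at least 1255 CPM in the other Sca1 libraries. Igf2 alone, at the levels given above, made up most of the NTC sums and a minor part of the knock-down sums. Of 19 tested, 13 were higher and 2 lower than in mESC, with 1 lower without knock-down library 2. The median was 1.82, or 1.68 with Hand1, at 0 counts in mESC, set at its bound. Against NTC 2 of the 19 were higher, 4 lower and 13 not called, with a median of -0.1, so the lower sum was not shared by most members. Fibroblast genes summed to 303.8 and 304.7 CPM against 217.9 to 219.3 CPM in mESC and 462.3 to 481.9 CPM in NTC, with 2 of 8 higher, with 0 higher without knock-down library 1 or 2, with Dcn and Prrx1 at 0 counts in mESC, and with Lum and Fap too low to test. Neural genes summed to 240.9 and 272.5 CPM against 438.6 to 454.2 CPM in mESC, with 5 of 12 higher (3 without mESC library 2) and 2 lower, and Pax6 and Dcx too low to test. Stmn2, a neuronal microtubule protein, fell from 302 and 282 to 49.0 and 49.5 CPM (-2.56 ± 0.15) and made up most of that sum in mESC.

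Visceral endoderm genes were lower in 8 and higher in 1 of 17 cases, with 5 lower without knock-down library 2. The higher one, Cited1, was lost without that library or mESC library 2, 3 were higher without mESC library 1, and Ttr and Afp were too low to test. Gata6, a factor of primitive endoderm, was at 34.3 and 28.6 CPM against 89.8 and 76.6 CPM in mESC (-1.42 ± 0.17), and Gata4 at 23.1 and 24.6 CPM against 110 and 89.1 CPM (-2.05 ± 0.21). Endothelial genes were higher in 2 and lower in 4 of 11 cases, with 0 higher and 2 lower without knock-down library 2, 0 higher without mESC library 2, 1 higher without knock-down library 1 or mESC library 1, and sums of 196.1 to 206.8 CPM against 317.5 to 317.6 CPM in mESC, and Tie1 and Erg were too low to test. Of the blood genes, 1 was higher and 2 lower of 5, and Ptprc and Gata1 were too low to test. The higher one, Myb, a transcription factor of progenitors, rose from 5.50 and 4.84 to 37.1 and 38.0 CPM (2.86 ± 0.23, adjusted p = 1.14e-07) and lay above NTC at 12.8 and 12.5 CPM. Striated muscle genes were higher in 7 and lower in 3 of 15 cases, with 3 higher without knock-down library 2. The striated muscle sums were nevertheless lower, at 132.7 to 143.1 CPM against 203.8 to 209.7 CPM in mESC. Visceral endoderm genes summed to 2885 to 2915 CPM against 3635 to 3787 CPM, and blood genes to 175.8 to 188.9 CPM against 298.1 to 345.8 CPM. The counts of called members are read beside 13.5% of all genes higher and 12.4% lower. The part of other cell types in any of these changes was not tested.

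Chromosome 15 stood apart in the knock-down cells. Its median log2 change against mESC was 0.48, with 256 of 543 genes higher and 19 lower, while the NTC and untreated cells had medians of 0.06 and 0.12. Against NTC the knock-down median was 0.39, with 177 genes higher and 32 lower. On chromosome Y, the translation factor gene Eif2s3y was at 8.41 and 12.3 CPM against 63.9 and 61.8 CPM in mESC, and Uty at 3.15 and 4.40 CPM against 21.5 and 40.0 CPM. The NTC libraries held a mean of 60.5 CPM of Eif2s3y, so the fall was seen against both groups and in both knock-down libraries. The part of these chromosome-wide shifts in the changes of genes elsewhere was not tested.

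**Figure D5:**
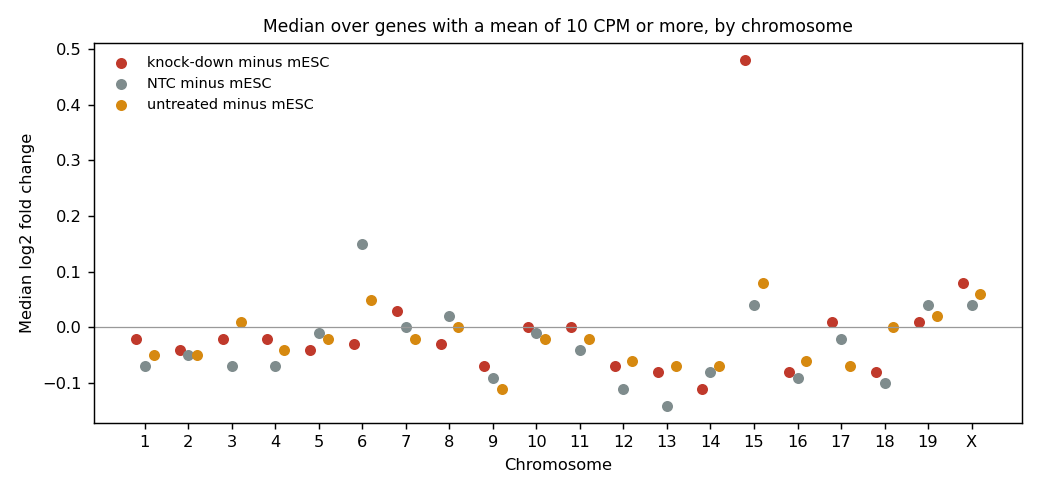
Median log2 fold change against mESC over genes with a mean of 10 CPM or more, by chromosome, for the knock-down, NTC and untreated Sca1 cells; each point is 1 median. The knock-down median of chromosome 15 is 0.48, and the knock-down medians of the other autosomes lie between -0.11 and 0.03.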

How the data were processed

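Poly(A) RNA of 8 mouse libraries was sequenced on a Genome Analyzer IIx, per the labels' protocols. What the authors deposited is 1 table of unscaled read counts with 1 row per RefSeq transcript. Programs are listed without a role per the submitters' processing notes, which give SAMtools 0.1.17, edgeR 0.19 and BWA 0.5.9. How reads were counted, on which build and by which strand, is not given in the sources used here, and reads of overlapping or near-identical genes cannot be told apart. Of 29614 transcripts, names came from a RefSeq gene table for 28985 and from GENCODE vM21 for 173, and 456 kept their accession. The transcript with the highest total stood for each of 23483 genes.

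Low counts were removed with filterByExpr, libraries were scaled with TMM factors, and a robust quasi-likelihood fit was made in edgeR 4.0.16 (R 4.3.3). The fit took all 8 libraries, with a mean for each group, and had 4 residual degrees of freedom and a common dispersion of 0.0133. P-values were adjusted over all 13966 genes by Benjamini-Hochberg. The standard error of a log2 change was obtained by dividing its size by the root of the F statistic, and intervals are 95%. A gene with 0 counts in a group was given 3 counts over that group for a least fold, and a gene with 1 to 3 counts a ratio with an exact counting interval, which covers counting error only. In simulated counts of 13689 genes, 67 were changed 1.5-fold, 67 were changed 2-fold and 66 were changed 4-fold. The test recovered 22.4%, 65.7% and 95.5% of these and called 15 unchanged genes.

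The comparison, the 40 gene lists (769 genes, 765 in the table) and the rules for naming genes were chosen with earlier results of these data known. Named genes were 10 set genes and the 12 largest called changes in each direction at 20 CPM or more without overlap. To these came up to 5 called members of each list with the smallest p. Further genes were the 8 largest beyond all 6 other libraries in each direction. The last were the 8 largest falls against NTC among the 378 genes described above, which were not called against mESC. Other genes in the text, among them Igf2, Dlk1, Acta1, Twist1, Cdh11, Bmp4 and all genes listed for small counts, were chosen after their values were seen. Replicate differences of groups with the same title number correlated over 10413 genes at r = -0.013 for knock-down and mESC, whose same-numbered libraries differ in their description code, and at 0.33 for mESC and untreated and 0.18 for NTC and knock-down, whose codes match. The other 3 pairs of groups lay between -0.067 and -0.014. The labels do not say what the code marks, and both numbers were used as blocks in alternatives. Alternatives were other scalings, DESeq2 1.42.0, other filters, only the 4 libraries compared, replicate blocks, a threshold of 1.5-fold, summed transcripts, and each library left out.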

Additional observations from a re-analysis of the deposited data

How the results depend on the processing

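Of 188 named genes called between knock-down and mESC, 139 kept their call in every alternative tried, and 27 lost it in at least 1 fit without 1 of the 4 compared libraries. Against 1884 higher and 1731 lower genes, the test against a 1.5-fold change called 743 and 520, library totals without composition factors 1906 and 1071, and DESeq2 1330 and 1076. Library totals raised the share of calls that were higher from 52.1% to 64% and moved the median of all genes from -0.01 to 0.095. Leaving out 1 library gave 1054 to 2112 higher and 790 to 2159 lower genes, the lowest without knock-down library 2 and the highest without mESC library 1. With the title number as a replicate block the counts were 1980 and 1854, and with the code in the descriptions as a replicate block 1687 and 1582. Same-numbered replicates of knock-down and mESC did not deviate together (r = -0.013), while those of mESC and untreated (0.33) and of NTC and knock-down (0.18), which share description codes, did. With the code as a block the knock-down minus NTC counts of 594 and 1404 became 1054 and 1772. Setd7, at -0.19, ranged from -0.45 to 0.11 over these leave-outs, and no fit called it.

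Signs turned in genes that were not called. They were 0.03 for Pou5f1, 0.05 for Fbn1, 0.01 for Mmp2 and 0.05 for Zfp362 with library totals, and -0.15 for Sox2 with the description code as a block. Leaving out 1 library gave -0.31 to 0.24 for Pou5f1, -0.14 to 0.20 for Sox2, -0.16 to 0.03 for Fbn1, -0.27 to 0.36 for S100g, -0.25 to 0.07 for Mmp2 and -0.11 to 0.01 for Zfp362. The cause was not tested. Of 1520 list counts recomputed, 1318 stayed within 1.5 times the reported count and 202 moved. In the simulated counts 22.4% of 1.5-fold changes were recovered. Far fewer genes were changed there than were called here, so that share cannot be carried over to these libraries. A gene at a few CPM rests on few counts.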
